A study of Mus musculus with 8 samples.

Results

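Of 116068 deposited ATAC peaks, stretches of open chromatin, 836 were chosen as more open in type II nuclei than in type I and transitional nuclei of mouse alveolarspheres. Nuclei with at least 1000 UMIs (unique molecular identifiers, counts of captured RNA molecules) were scored by the summed RNA of 5 genes each: Sftpb, Napsa, Abca3, Lamp3 and Slc34a2 for type II, Ager, Hopx, Rtkn2, Clic5 and Lmo7 for type I, and Krt8, Krt18, Krt19, Cldn4 and Sfn for transitional. A class held the nuclei in the top 25% of its own score and of no other, with under 5 Sox9 UMIs and with Scgb3a1 and Bpifa1, secretory genes of the airway, under 50 UMIs per 10000. A peak was a member if it had at least 50 ATAC counts in the type II class and a rate there at least 3 times that of both other classes. The rate, written CPM, is the peak's count per 1000000 counts in all peaks of the class. Of the 76165 peaks with at least 50 counts, the 836 members were 1.1%. This contrast chose the members, so their rates in the 3 classes are given as a description. The same rule turned toward the other classes gave 83 type I-selective and 2318 transitional-selective peaks. Their minimum of 50 counts applied to smaller class totals, so the 3 numbers are not on equal terms.

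Alveolarspheres are small spherical cultures of lung epithelium, here seeded with type II cells (ATIIs) of young and old mice and grown without serum or feeder cells. On day 9 they were infected with an adeno-associated virus, AAV9_Cre or AAV9_Sox9Cre, so that both groups received Cre recombinase and only Sox9Cre received extra Sox9, a transcription factor of the distal lung bud. ATII differentiation medium followed for 4 days, tdTomato+ cells were sorted, and RNA and ATAC were read from the same nuclei, in 2 samples for each of the genotypes Sox9Cre and Cre and each kind of library (8 in all). No label ties the 4 barcode prefixes of the pooled matrices to a sample or a mouse age, so they are called libraries A to D, nothing was compared between Sox9Cre and Cre, and the pool counts as 1 sample with no test between groups. The promoters that drive the viral genes and the tdTomato allele were not given in the sources used here.

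Type II cells make surfactant, a mixture of phospholipids and proteins that they store in lamellar bodies and release to keep the air sacs open, and they also serve as the stem cells of the alveolus. When they differentiate they pass through a keratin-rich transitional state and flatten into type I cells, which form the gas exchange surface. Much of what sets one cell type apart is encoded in enhancers, stretches of open chromatin away from gene starts where transcription factors such as NKX2-1 and the CEBP family bind.

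Sequence was at hand for members that hold a gene start. The starts of 25 RefSeq promoters (GRCm38.p6, matched by position) lay in 24 members. CEBP factors, leucine zipper proteins that switch on lipid and surfactant genes, are known to recognise sites such as TTGCNNAA. That motif was found in 11 of the 25 windows of 300 bases on either strand. The 250 bases upstream of the start are shown for 5 of the 11, a choice made after the values were seen: 3 genes with RNA highest in the type II class (Angptl8, Rnase4, Acoxl) and 2 known for high expression in liver (Orm2, Alb). Each is on the plus strand and printed 5′ to 3′, at chr9:21835260-21835509, chr14:51095750-51095999, chr2:127854378-127854627, chr4:63362199-63362448 and chr5:90460620-90460869 in the order below, and capitals mark the letters that match TTGCNNAA or its reverse complement TTNNGCAA.
Angptl8: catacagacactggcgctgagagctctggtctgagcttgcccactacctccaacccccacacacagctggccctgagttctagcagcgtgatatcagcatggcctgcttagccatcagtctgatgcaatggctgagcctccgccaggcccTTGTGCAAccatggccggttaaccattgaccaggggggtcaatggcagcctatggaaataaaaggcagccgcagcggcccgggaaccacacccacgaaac
Rnase4: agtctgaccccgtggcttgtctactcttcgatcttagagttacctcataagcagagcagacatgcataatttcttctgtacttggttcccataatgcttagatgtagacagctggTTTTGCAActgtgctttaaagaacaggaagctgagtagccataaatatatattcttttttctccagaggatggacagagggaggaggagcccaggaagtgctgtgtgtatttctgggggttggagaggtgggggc
Acoxl: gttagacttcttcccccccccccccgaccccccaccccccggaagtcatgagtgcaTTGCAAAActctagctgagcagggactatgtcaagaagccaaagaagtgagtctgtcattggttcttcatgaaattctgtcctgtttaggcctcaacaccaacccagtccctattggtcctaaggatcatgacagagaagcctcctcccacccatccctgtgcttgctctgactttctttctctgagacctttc
Orm2: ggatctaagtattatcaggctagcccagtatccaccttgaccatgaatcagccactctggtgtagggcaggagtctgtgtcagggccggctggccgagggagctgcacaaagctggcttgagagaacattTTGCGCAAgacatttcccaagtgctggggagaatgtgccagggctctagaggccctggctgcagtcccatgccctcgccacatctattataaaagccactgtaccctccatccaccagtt
Alb: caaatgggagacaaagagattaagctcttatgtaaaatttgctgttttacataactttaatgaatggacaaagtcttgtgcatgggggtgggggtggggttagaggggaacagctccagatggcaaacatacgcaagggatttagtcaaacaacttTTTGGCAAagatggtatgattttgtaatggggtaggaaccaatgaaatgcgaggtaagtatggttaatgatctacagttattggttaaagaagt
A match is a description of the letters, and binding was not measured.

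The 3 classes held 1715 type II, 1228 type I and 1167 transitional nuclei, and 3058 of the 7168 nuclei fell in none. Median depth per nucleus was 8846, 8448 and 10353 ATAC counts and 12511, 9704.5 and 11971 UMIs in that order, and the type II class had 262, 165, 835 and 453 nuclei in libraries A to D. The label of the class was checked on 9 type II markers outside the score, which together stood at 104 UMIs per 10000 in the type II class, 11.5 in the type I class and 9.98 in the transitional class. Sftpa1, a surfactant protein gene outside the score, stood at 25.003, 0.627 and 1.56 UMIs per 10000. Dlk1 had no UMI in the type II class. Markers of airway, immune, endothelial and mesenchymal cells were low there. Airway secretory markers stood at 1.38 UMIs per 10000 (2.07 and 2.45 in the other classes) and ciliated at 0.150. Immune markers without Lyz2 stood at 0.0581, endothelial at 0.0306 and mesenchymal at 0.0105. Type I markers, score genes included, stood at 37.0 in the type II class, 195 in the type I class and 78.3 in the transitional class. Transitional markers, score genes included, stood at 23.1, 64.7 and 192 in that order. All intervals below are exact 95% intervals that cover counting error only, and 19 barcode sequences occurred in more than 1 library.

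Members together took 0.729% of the ATAC counts of the type II class, 0.170% of those of the type I class and 0.149% of those of the transitional class. Within libraries A to D the type II share was 0.670%, 0.674%, 0.749% and 0.728%. The type I share was 0.152%, 0.131%, 0.181% and 0.179%, and the transitional share 0.120%, 0.123%, 0.163% and 0.149%. The type II value was the highest of the 3 in each library and the ranges over libraries did not overlap, which the choice of members favours. Single members were sparse: the median member had a count in 7.14% of type II nuclei, 1.55% of type I nuclei and 1.54% of transitional nuclei. The rate over members ran from 2.60 to 42.8 CPM in the type II class (median 7.23), against medians of 1.56 and 1.44 in the other classes.

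**Figure D1:**
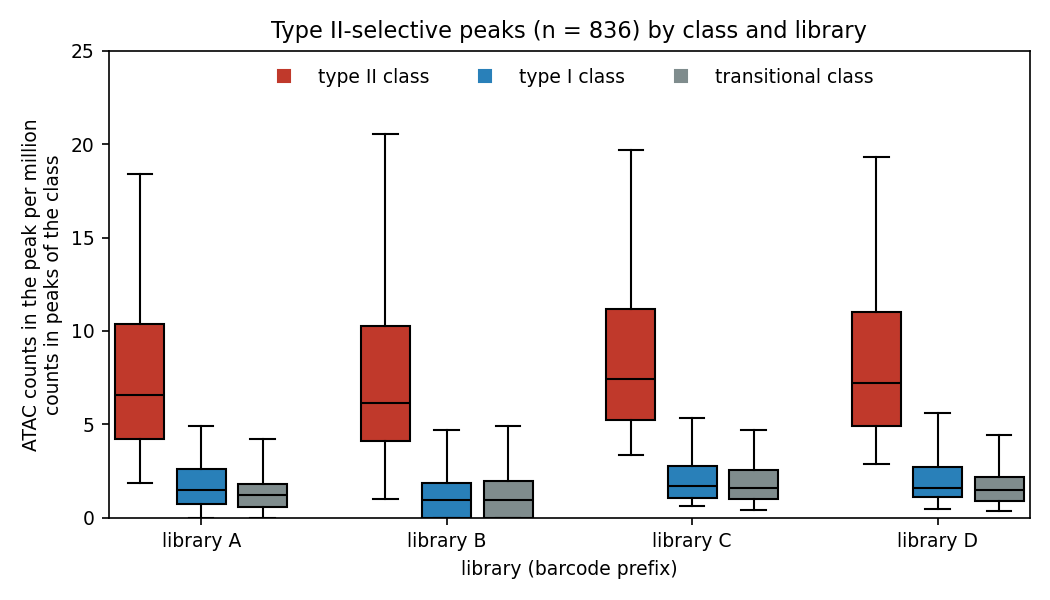
ATAC rate of the 836 members (CPM) in the type II, type I and transitional class of libraries A to D. Boxes span the quartiles with the median as a line and whiskers run from the 5th to the 95th percentile; the type II medians were 6.60, 6.16, 7.45 and 7.21, above type I medians of 1.504, 0.940, 1.71 and 1.57.

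Most members lay not far above the threshold. The fold over the higher of the other classes had a median of 3.79 with quartiles of 3.29 and 4.61, and 160 members reached 5-fold and 24 reached 8-fold. Over all 76165 peaks that median was 0.961. The type I class was the higher of the other 2 in 532 members and the transitional class in 304. The type I rate was at least 2 times the transitional rate in 77 members, and the reverse held in 17. Just inside the threshold lay the peaks nearest to Vezt (3.00005-fold), Thrb (3.00136) and Sec22b (3.00152), and just outside it those nearest to Gm35035 (2.99879), Secisbp2l (2.9963) and Dhx32 (2.9963).

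The member with the highest fold was an intergenic peak 771 bp outside Slc34a2 (chr5:53072435-53073172), the sodium-phosphate cotransporter of type II cells. In libraries A to D its rate was 17.9, 14.4, 14.1 and 14.6 CPM in the type II class, 0.752, 0, 1.07 and 1.35 in the type I class, and 0.599, 0.978, 0.788 and 0.184 in the transitional class. The type II rate was the highest in each library, which the choice of the peak favours. The pooled fold was 14.6 (8.37 to 27.7), and the interval takes no account of that choice. Slc34a2 is itself a score gene, so its RNA was used to choose the class. Next came a peak inside Adam19 (chr11:46123008-46123931), which encodes a membrane-bound metalloprotease and was no score gene. Its type II rates were 8.01, 9.25, 8.37 and 12.8 in libraries A to D, against at most 0.855 in the type I class and at most 1.96 in the transitional class (pooled fold 13.2, 7.02 to 27.9). A peak inside Ccp110 (chr7:118714705-118715596), whose product caps centrioles, followed with 12.7, 13.4, 18.2 and 16.6 and a fold of 13.0 (8.00 to 22.6). The other 7 of the 10 highest folds ranged from 10.998 to 12.4 and lay nearest to Bmp2, Cdh26, Sult2a3, Eif3a, 7420700N18Rik, Ppp2r3a and Sdccag8, of which 3 were over 50 kb from the named gene.

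Members with the highest rates were open in many more nuclei, and the folds of the first 10 ran from 3.05 to 5.40. The highest, chr10:95074848-95075799, lay between genes, 44783 bp from Gm29684, and had 42.8, 12.5 and 7.88 CPM in the type II, type I and transitional class (3.43-fold, 2.90 to 4.09). A peak inside Dram1 (chr10:88334999-88335930), a lysosomal membrane protein tied to autophagy, had 41.5, 28.8, 33.9 and 35.5 in the type II class of libraries A to D. In the type I class it had between 7.90 and 13.5. This peak counted as at a gene start, though the start of Dram1 lay 21145 bp away. A peak inside Actl6a (chr3:32717985-32718928), a subunit of chromatin remodelling complexes, had 31.7 in the type II class, 6.69 in the type I class and 1.59 in the transitional class, so that the transitional class was the lowest here. The remaining 7 of the 10 lay near Lncbate6, Ret, Auh, Rtkn, Utp20, Tmem243 and Cacnb4, with type II rates from 25.7 to 31.5.

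A measure that the choice did not use came from the 3058 nuclei outside the 3 classes. Of these, 2085 were high in no score. The rest were high in more than 1 score or kept out by their Sox9 or airway genes. All 3058 were split by their type II score into 3 groups of near equal size. The upper and lower groups had 1019 nuclei each and median depths of 9320 and 9794 ATAC counts. Scores in the upper group reached 283, above the class threshold of 86.8. Over the 2085 alone, an alternative added after seeing the data, 480 of 763 members were at least 2-fold higher (median fold 2.25). Of the 827 members with at least 20 counts over both groups, 537 (64.9%) were at least 2-fold higher in the upper group, against 4.54% of 106962 peaks. Their median fold was 2.36, against 0.994 over all peaks. Without that minimum, 543 of all 836 members were 2-fold higher, with a median of 2.35. Higher at all were 793 members, beside 49.2% of all peaks, and for 633 the interval of the fold lay above 1. At least 2-fold lower was 1 member, beside 8.45% of all peaks: the peak near Cxcl1, a neutrophil chemokine gene, with 1.26 CPM in the upper and 2.91 in the lower group (0.434-fold, 0.219 to 0.822). The type II score is built from genes that were also used to form the classes, so the split shares its genes, but not its nuclei, with the choice of members.

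In single libraries fewer members had 20 counts. At least 2-fold higher were 30 of 49 members in library A (61.2%, all peaks 5.5%), 447 of 677 in C (66.0%, all peaks 6.04%) and 300 of 547 in D (54.8%, all peaks 5.93%). Library B, the smallest, had 2 members with 20 counts, 1 of them 2-fold higher (all peaks 4.28%). Most members were higher in the upper group, so the minimum favours members with many counts there. The shares in single libraries do not cover the members below the minimum, which were most members in A and B. Across deciles of the score, the members' share of ATAC counts was 0.167% in the lowest decile, 0.198% in the fifth and 0.530% in the highest. The share thus stayed below the 0.729% of the type II class. Most of the difference lay in the upper deciles, from 0.264% in the seventh to 0.326% and 0.401% in the eighth and ninth. The decile shares have no minimum count per member. In library A the share was 0.111% in the lowest and 0.460% in the highest decile, and in library B 0.118% and 0.390%.

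**Figure D2:**
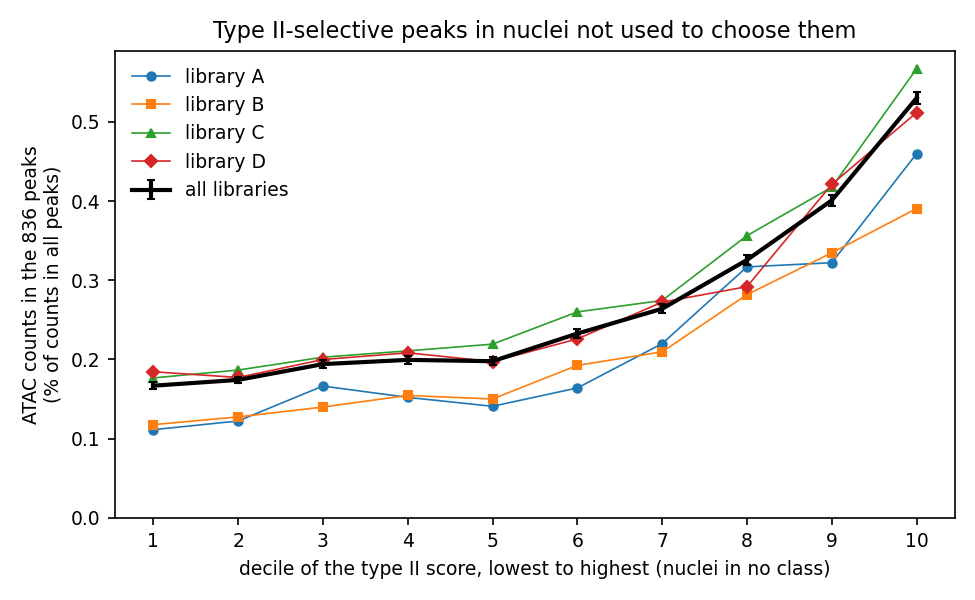
Share of ATAC counts that fell in the 836 members, in % of counts in all peaks, for nuclei in none of the 3 classes, ordered in deciles of the type II score. Coloured lines are libraries A to D and the black line is all libraries with exact 95% intervals of counting error; the share was 0.167% in the lowest and 0.530% in the highest decile, and in each library the highest decile lay above the lowest.

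Single members differed in how far they followed the score there. The Slc34a2 peak had 4.13 CPM in the upper and 0.882 in the lower group (4.68-fold, 2.34 to 10.4), the Adam19 peak 3.79 and 0.706 (5.37-fold, 2.51 to 13.2) and the Actl6a peak 17.9 and 2.38 (7.50-fold, 5.01 to 11.6). The largest folds, named after their values were seen, were at peaks nearest to Agap1 (10.3-fold, 4.50 to 29.2), Fgd6 (8.99-fold, 4.95 to 17.9) and Cntn3 (8.46-fold, 3.87 to 21.9). The peak inside Foxp1 (chr6:99252516-99253469), a forkhead factor of the lung epithelium, had 3.45 and 3.00, and its interval of 0.713 to 1.87 included 1. In the same nuclei the Elovl1 peak (1.59-fold, 0.741 to 3.57) and the Me1 peak (1.31-fold, 0.753 to 2.32) had intervals that included 1 too.

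When members were chosen on 3 libraries and read in the fourth, most of those with enough counts there kept a higher type II rate. The choice gave 784 members without A, 807 without B, 675 without C and 800 without D. All passed a minimum of 20 counts in C and D, but 417 did in A and 104 in B. A member's counts lay mostly in the type II class, so the minimum favours members high there. The shares in A and B do not cover the other members. Among those with at least 20 counts over the 3 classes of the library left out, 360 of 417 were at least 2-fold above both classes in A (86.3%, all peaks 3.58%), 94 of 104 in B (90.4%, 3.23%), 600 of 675 in C (88.9%, 2.83%) and 698 of 800 in D (87.25%, 3.06%). Median folds were 3.54, 3.68, 3.11 and 3.14, where all peaks had medians from 0.846 to 0.859.

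The share was also read in nuclei that were high in more than 1 score or were kept out of the classes. Nuclei high in both the type II and type I scores (23) had 0.522% of their summed counts in members (0.481% to 0.566%). Their median nucleus had 0.427%, at a low median depth of 2224 ATAC counts. Nuclei high in type II and transitional scores (13) had 0.438% of summed counts, and the median nucleus 0.335%. The 526 high in type I and transitional scores had 0.145%, the level of those classes. Nuclei high in no score (2085) had 0.284%. Whether the 36 nuclei with a high type II score and a high second score were doublets was not tested.

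Nuclei with at least 5 Sox9 UMIs (312, of which 197 were in library C and 114 in D) had 0.321% of their counts in members. In library C this was 0.347% (0.340% to 0.354%) against 0.305% (0.301% to 0.308%) in nuclei high in no score, and in library D 0.288% (0.281% to 0.295%) against 0.284% (0.280% to 0.288%). These shares are of summed counts. The median nucleus had 0.250% against 0.246% in library C, and 0.208% against 0.235% in library D, where the order was reversed. Sox9 nuclei were not limited by score, unlike those they are set against. Single members reached the rate of the type II class in Sox9 nuclei in 41 of 836 cases (4.90%, all peaks 40.9%). Members were chosen for a high type II rate, so a share below that of all peaks follows from the choice and nothing is read from it. Among the 41 were a peak near 4930548J01Rik (chr17:4177255-4178174), with 21.0 CPM in Sox9 nuclei and 8.53 in the type II class, a peak near Rab23 (chr1:33734038-33734863), with 15.2 and 7.02, and the peak near Lyz1, with 15.8 and 13.8. Median depth was higher in Sox9 nuclei, at 13652 ATAC counts and 14368 UMIs, and its part in these values was not tested.

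Nuclei rich in Scgb3a1 and Bpifa1 (99, all in libraries C and D) had 0.375% of their counts in members. Of the 279 members whose type II rate was worth at least 10 counts in these nuclei, 40 (14.3%, all such peaks 39%) were at or above that rate, a comparison that the choice of members fixes in the same way. The highest rate among airway nuclei was at a peak near Cp (chr3:19953590-19954501), the gene of the copper carrier ceruloplasmin, with 38.2 CPM against 10.9, 1.40 and 3.56 in the type II, type I and transitional class. A peak 1146 bp from Cyp2f2 (chr7:27117864-27118809), a cytochrome P450 gene of airway club cells, had 30.7 against 14.0, 4.51 and 4.62. These 2 peaks were selective among the 3 alveolar classes and higher still in airway nuclei. The Slc34a2 and Lamp3 peaks had 0.931 each in airway nuclei, which is 1 count.

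Members lay away from gene starts. Within 1 kb of a start were 51 members (6.10%), against 24.0% of all peaks with 50 counts. Inside a gene were 433 (51.8%, all peaks 46.8%), between genes but within 50 kb of one 238 (28.5%, all peaks 23.7%) and farther 114 (13.6%, all peaks 5.49%). The selective peaks of the other classes were also rare at starts, at 2.41% for type I and 4.14% for transitional, so a low share at starts was shared by the 3 selective sets. The median distance to the start of the nearest gene was 30272 bp for members and 13518 bp for all peaks, while the widths were alike (medians 910 and 914 bp). For genes without a listed start, both gene ends were counted as starts.

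**Figure D3:**
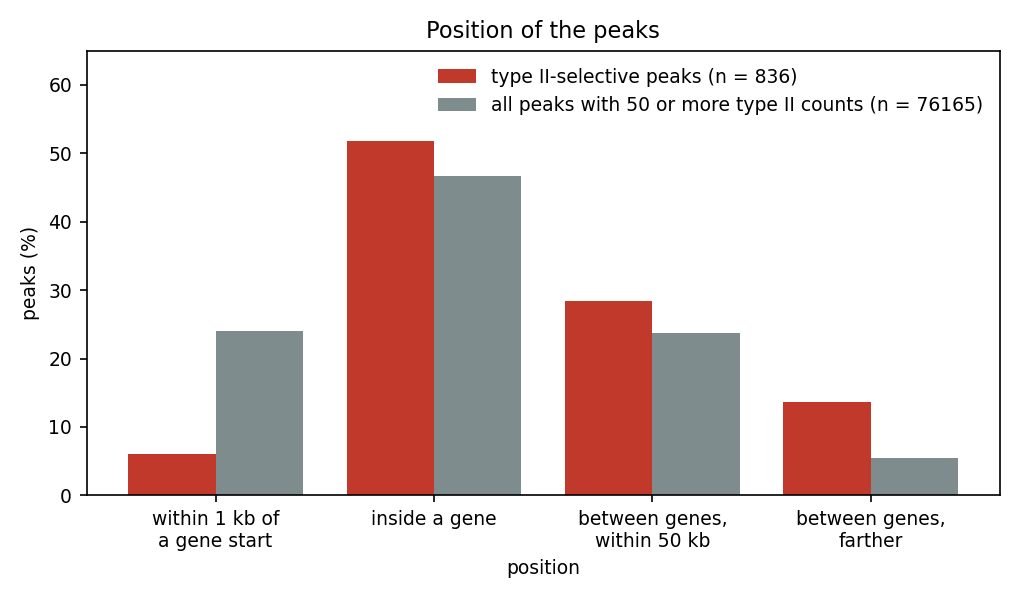
Share of peaks (%) by position relative to RefSeq genes, for the 836 members (red) and for the 76165 peaks with at least 50 type II counts (grey). Members within 1 kb of a gene start were 6.10% against 24.0%, and members farther than 50 kb from a gene were 13.6% against 5.49%.

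Members were spread over the genome. All 19 autosomes and X held members, from 0.479% of the tested peaks on chromosome 7 (23 of 4804) to 1.67% on chromosome 16 (44 of 2631). Runs in which neighbours lay within 50 kb of each other took in 92 members in 44 runs, and the longest, of which there were 4, had 3 members. One of these lay by Cxcl15 and Cxcl1 on chromosome 5 and another by Pon1 and Pon3, genes of the paraoxonase family, on chromosome 6. The 722 members within 50 kb of a gene named 674 nearest genes, 626 with 1 member and 48 with 2.

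RNA of those nearest genes was not used to choose the members, apart from Slc34a2, Lamp3 and Rtkn2, which are score genes and were left out. Of the rest, 168 had under 30 UMIs over the 3 classes and 503 were tested. RNA was at least 2-fold higher in the type II class than in both other classes for 75 of the 503 (14.9%), against 4.53% of 14939 genes and 4.54% of genes nearest to any peak with 50 counts. It was at least 2-fold lower than in both for 27 (5.37%), against 7.36% and 7.51%. The median log2 difference to the higher of the other classes was -0.07, against -0.31 over all genes. All other nearest genes passed neither threshold. The sign of the median depends on the scaling: with median ratio scaling it was 0.05 for nearest genes and -0.19 for all genes, and 85 nearest genes (16.9%, all genes 5.49%) were 2-fold higher. That scaling raised the share of higher calls among all calls from 38.1% to 46.8% of genes.

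Genes with 2 members were 2-fold higher in 8 of 38 cases (21.1%) and those with 1 member in 67 of 465 (14.4%). Any 2-fold higher gene within 50 kb was found for 116 of 610 members (19.0%), against 9.66% of peaks with 50 counts. Seen from the genes, 75 of the 677 that were 2-fold higher in the type II class (11.1%) were nearest to a member, against 3.37% of all genes tested.

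**Figure D4:**
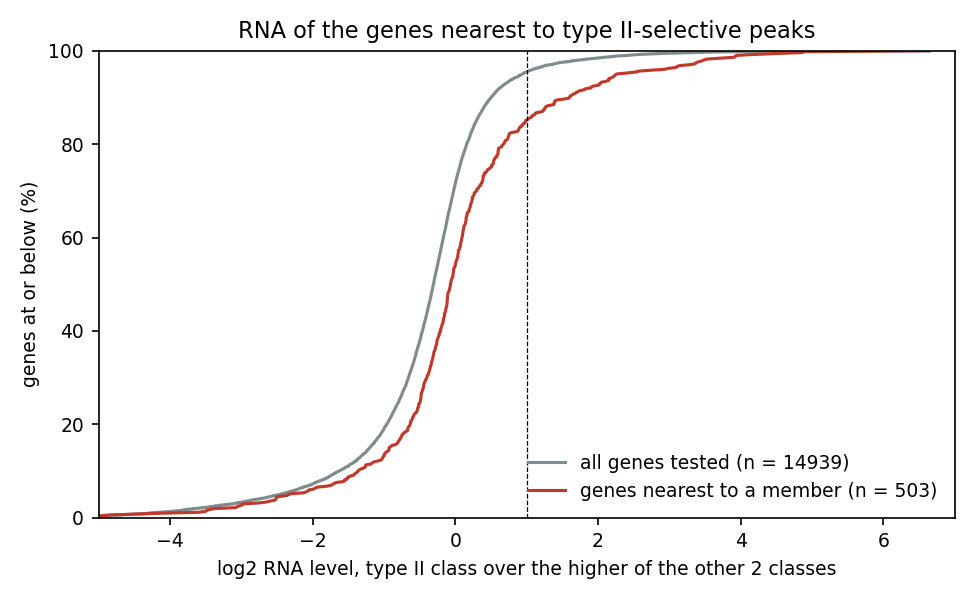
Cumulative share of genes (%) by the log2 ratio of RNA in the type II class over the higher of the type I and transitional classes, for genes nearest to a member (red, n = 503) and all tested genes (grey). The dashed line marks 2-fold; 14.9% of the nearest genes and 4.53% of all genes lay at or beyond it.

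Among nearest genes with at least 100 type II UMIs, Adam19 had the highest RNA fold. Its level was 1.44, 1.15, 1.11 and 1.28 UMIs per 10000 in the type II class of libraries A to D, and 1.21 pooled against 0.0121 and 0.00832 in the type I and transitional class (99.7-fold). Hc, which encodes complement component C5, stood at 1.47, 2.17, 2.27 and 2.27 in the 4 libraries and 29.9-fold above the type I class. Its member (chr2:35063158-35064086) had 8.37, 1.95 and 1.44 CPM. That peak lay within the span of Hc, counted as at a gene start and held the promoter window of Gm39794. The type II levels of Adam19 and Hc did not overlap those of another class in any library, but both were named for a high RNA fold. The others named by this rule were 5033403H07Rik (29.0-fold), Klk13, a secreted serine protease (22.5), Inpp4b, a phosphoinositide phosphatase (18.1), Slc24a4, a sodium, calcium and potassium exchanger (15.3), Cracr2a, a regulator of calcium channels (15.2), Cxcl15, a chemokine of lung epithelium (15.03), Il33, an alarm cytokine (13.2), and Gm30301 (11.5).

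Klk13 rested on 132 UMIs in the type II class, while its member (chr7:43713403-43714395, within 1 kb of the start) had 24.0, 21.6, 22.3 and 21.5 CPM in libraries A to D, against at most 4.79 in any other class and library. The Il33 member, 16648 bp from the gene (chr19:29907538-29908465), had 9.90, 11.3, 16.7 and 12.4 in the type II class and at most 2.82 elsewhere. Both peaks were above the other classes in every library. Of all 836 members, 827, 797, 836 and 836 were so in libraries A to D. The choice of members favours this, and nothing is read from it. Near Cxcl15 lay 2 members at chr5:90819395-90820386 and chr5:90843683-90844725, with type II rates of 10.2 and 11.7 CPM against 2.35 to 2.65 in the other classes.

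RNA and member did not always point the same way. Limch1, which encodes a regulator of actin and non-muscle myosin, held 2 members at 5.10 and 4.58 CPM in the type II class, while its RNA was highest in the type I class (12.7 UMIs per 10000, against 3.05 in type II and 1.72 in transitional). Ret, a receptor tyrosine kinase gene, had a member at 31.5 and RNA at 0.0455, 0.0553 and 0.130. The 48 genes with 2 members were tied, and the 10 of them with the highest type II RNA level were taken, so their RNA was used to choose them and is a description. Of these, Cxcl15, Nrp1 (a coreceptor of VEGF and semaphorins, 4.12-fold) and Scp2 (a sterol carrier protein, 2.15-fold) were 2-fold higher in RNA. Limch1 stood at 0.241 of the type I level but above the transitional level. Lpp, Ccdc141, Rdx, Plekhh2 and Ndufb3 ranged from 0.592-fold to 1.44-fold. Nearest in position is no measure of which gene a peak acts on.

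Genes known for surfactant and lamellar bodies were among the neighbours, but through few peaks. Of the 139 tested peaks within 10 kb of a gene of that list 6 were members (4.32%), against 0.930% of all peaks within 10 kb of a gene, and they lay at Atp8a1, Hc, Lamp3, Lyz1, Pon3 and Slc34a2. Without the 5 score genes, whose RNA formed the classes, 4 of 113 peaks were members (3.54%). RNA of the list was at least 2-fold higher in the type II class for 15 of 21 genes tested and 2-fold lower for 1, Scnn1g, an epithelial sodium channel subunit (all genes 4.53% and 7.36%; median log2 2.09, all genes -0.31). The score genes are not among the 21. The Lamp3 member (chr16:19707295-19708032), 930 bp from the gene of a lamellar body membrane protein, had 3.77, 9.25, 5.44 and 6.63 CPM in the type II class of libraries A to D. It had 1.88, 0, 2.14 and 0.899 in the type I class and 0.599, 1.96, 1.18 and 0.736 in the transitional class. These groups did not overlap over the libraries, but the peak was chosen on this contrast. Lyz1, a lysozyme gene, had a member of 13.8, 0.856 and 2.50 CPM 8631 bp away, with RNA at 0.183, 0.0227 and 0.255 UMIs per 10000. The order of its type II and transitional levels rested on library D (0.0703 and 0.633), and without that library they stood at 0.225 and 0.0764.

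Peaks of the surfactant protein genes missed the threshold. The highest fold within 10 kb was 2.80 for Sftpd (19.5, 5.60 and 6.97 CPM in the type II, type I and transitional class), 2.27 for Sftpc (41.6, 18.4 and 11.1), 1.96 for Sftpb (57.7, 29.5 and 22.1) and 1.25 for Sftpa1 (20.2, 15.9 and 16.1). RNA of Sftpa1, which is no score gene, was 16.0-fold above the higher class, more than the ATAC ratio of its peak. Sftpb RNA formed the classes and is not compared. The peaks of Abca3, the lipid transporter of lamellar bodies, reached 2.80 and Napsa, an aspartic protease that processes surfactant protein B, 1.66. For Lyz2 the single tested peak was at 0.743, while its RNA was 40.6-fold higher in the type II class (67.3-fold without library D).

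Enzymes of fatty acid and sterol synthesis, which supply surfactant lipids, had 4 members among 173 peaks (2.31%), at Dgat2, Elovl1, Me1 and Scd1. The share over all peaks within 10 kb of a gene was 0.930%, and with 4 members nothing is read from the difference. RNA of 15 of the 30 genes was 2-fold higher in the type II class and of none 2-fold lower than in both others (all genes 4.53% and 7.36%; median log2 0.87, all genes -0.31). The member 6730 bp from Scd1, a desaturase of fatty acids (chr19:44386914-44387720), had 16.5, 15.4, 20.1 and 20.9 CPM in the type II class of libraries A to D. The type I values were 4.89, 12.2, 6.63 and 5.39, so library B was closest, and the transitional values ran from 1.96 to 5.89. Scd1 RNA stood at 78.6, 5.50 and 8.06 UMIs per 10000 (9.75-fold). Elovl1, an elongase of very long chain fatty acids, had a member of 4.79, 0.467 and 0.757 CPM and RNA 7.93-fold higher. Dgat2, which makes triglycerides, had a member of 11.9, 2.49 and 3.03 but 23 UMIs in the type II class, and Me1, the malic enzyme that supplies NADPH, had RNA at 1.32-fold.

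Transcription factors and other regulators of type II cells had 3 members among 177 peaks (1.69%), inside Foxp1, Ppargc1a and Tfcp2l1. The share over all peaks within 10 kb of a gene was 0.930%, and with 3 members nothing is read from the difference. RNA of 5 of 24 genes was 2-fold higher in the type II class and of none 2-fold lower than in both others (all genes 4.53% and 7.36%; median log2 0.20, all genes -0.31). Ppargc1a, a coactivator of mitochondrial genes, held a member at chr5:51825528-51826269 with 4.24, 6.16, 9.13 and 8.22 CPM in the type II class of libraries A to D and at most 1.88 elsewhere (8.24-fold, 4.68 to 15.8), while its RNA was at 0.318, 0.161 and 0.271 UMIs per 10000. Tfcp2l1, a grainyhead-family factor, had a member of 5.57, 1.63 and 1.06 and RNA at 1.73-fold. At Nkx2-1, the lineage factor of lung epithelium, the tested peak had 26.6, 26.8 and 16.5 CPM (0.993-fold), and at Cebpa the highest fold was 1.22, with RNA of 2.32, 0.342 and 0.332 UMIs per 10000 (6.79-fold).

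Peaks within 10 kb of FGF, WNT, BMP and EGF pathway genes included 1 member of 177 (0.565%, all peaks within 10 kb of a gene 0.930%). It lay 2448 bp from Etv1, an ETS factor downstream of FGF signals (chr12:38776974-38777634), with 6.24, 1.17 and 0.984 CPM and RNA on 107 UMIs that was 6.64-fold higher. In this list 5 of 29 genes were 2-fold higher in RNA (all genes 4.53%) and 2 were lower (all genes 7.36%), with a median log2 of -0.21 (all genes -0.31). Genes of MHC class II, which type II cells use to present antigen, had 0 members among 33 peaks, too few to tell from the 0.930% of all peaks within 10 kb of a gene. RNA of 5 of 7 was 2-fold higher (all genes 4.53%). The highest fold of a peak there was 1.83, at H2-Ab1.

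Promoters that lay in a member, the 5 printed above among them, were poor in G and C. Their median content was 44.3% over the 25 windows, against 61.7% for 14442 promoters in any peak with 50 counts and 52.7% for all 32851 promoters, and they had a median of 3 CG pairs against 21 and 7. The CEBP motif TTGCNNAA was in 11 of 25 (44%, exact interval 24.4% to 65.1%), against 8.15% and 10.8%. Among promoters with at most 50% G and C, a restriction added after the values were seen, it was in 7 of 19 (36.8%) against 17.5% and 15.3%. The GATA motif AGATAA was in 6 (24%, against 5.66% and 11.2%), AP-1 TGANTCA in 4 (16%, 5.37% and 7.81%), NKX2 CACTTGA in 2 (8%, 2.11% and 3.06%), RUNX TGTGGTT in 2 (8%, 3.52% and 5.27%), SOX ACAATGG in 1 (4%, 1.87% and 3.66%) and KLF CCACCC in 8 (32%, 37.2% and 31.5%). The ETS motif was searched in 2 forms, CCGGAAG in 1 (4%, 16.9% and 8.86%) and AGGAAGT in 4 (16%, 8.04% and 9.35%). FOX TGTTTAC, GRHL AAACCNGTT, TEAD ACATTCC, STAT TTCCNGGAA and the NFI motif, a palindrome of 15 bases, were in 0. No motif contains another as spelled, though the 2 ETS forms overlap in letters, and all were searched on both strands.

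**Figure D5:**
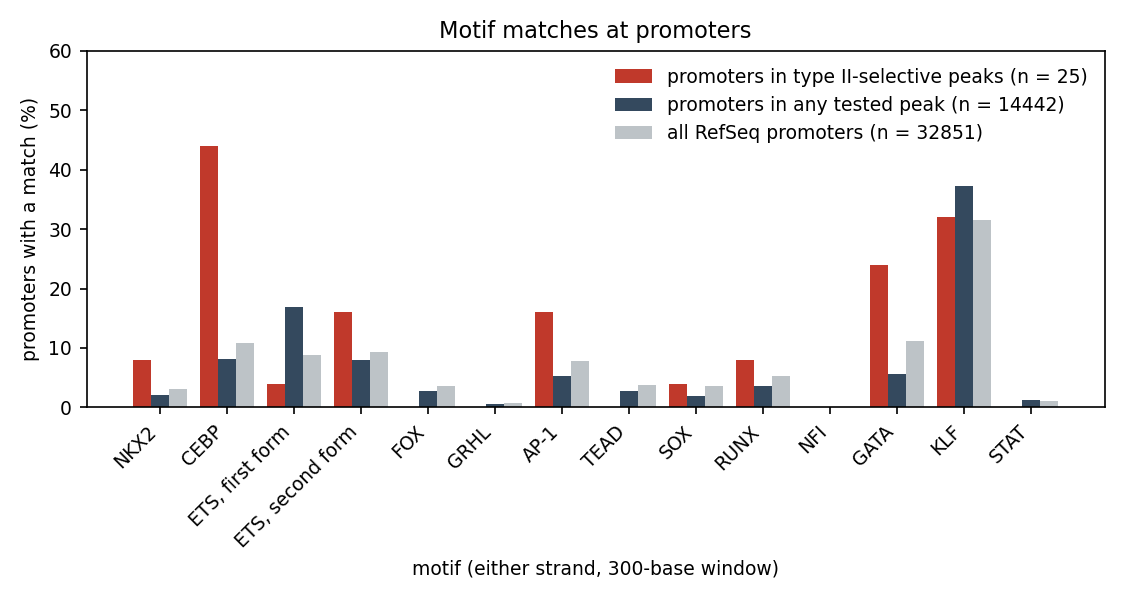
Share of 300-base promoter windows (%) with at least 1 match to each motif on either strand, for the 25 promoters that start in a member (red), 14442 promoters in any tested peak (dark) and all 32851 promoters (light). CEBP stands at 44% against 8.15% and 10.8%, on 11 of 25 windows.

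RNA could be tested for 7 of the 25 promoters' genes, and 4 were 2-fold higher in the type II class (all genes 4.53%): Angptl8, Rnase4 and Acoxl, and Gm15895, whose window holds no CEBP match (55 UMIs in the type II class and 1 in each other class, peak at 21.1 CPM). Nin, Tbxas1 and Tprkb ranged from 0.805-fold to 1.04-fold. For 10 other genes RNA was not tested, as they had under 30 UMIs and at most 15 in the type II class. Angptl8, which encodes a secreted regulator of lipoprotein lipase, had a peak of 22.6, 19.5, 28.5 and 23.9 CPM in the type II class of libraries A to D, against 4.94 to 7.90 in the type I class and 5.87 to 9.85 in the transitional class. Its RNA was low, at 0.0787, 0.00227 and 0.00704 UMIs per 10000 (11.2-fold, 180 type II UMIs). Rnase4, a secreted ribonuclease gene that is known to share promoters with Ang, had a peak of 21.0, 5.29 and 6.97 CPM and RNA at 3.32, 0.303 and 0.181 (10.96-fold), and its window reached beyond the peak. Acoxl, a relative of acyl-CoA oxidases, had 11.4, 2.33 and 2.88 CPM and RNA 10.3-fold higher.

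The promoters of Orm2 and Alb, which encode the plasma proteins orosomucoid and albumin, were open while few UMIs of their genes were found. Orm2 had 12.3, 15.4, 12.3 and 14.3 CPM in the type II class of libraries A to D, at most 3.37 in any other class and library, and 2 UMIs in the whole type II class. In unclassed nuclei its peak was 3.14-fold higher in the upper group of the type II score (2.08 to 4.86). Alb had 3.38, 0.623 and 0.757 CPM and 15 type II UMIs, and its fold of 1.64 in unclassed nuclei had an interval of 0.594 to 4.91.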

How the data were processed

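The authors deposited raw UMI counts (32285 genes) and raw ATAC counts (116068 peaks) for 7224 nuclei as pooled matrices. The submitters' processing notes name the tools Signac 1.10.0, Seurat 4.3.0 and Cell Ranger 6.0.1 and, as builds, mm10 and GRCm38, without saying what each was used for. The peak caller was not given in the sources used here. Of nonzero ATAC values 80.4% were 1. Oligo lists for multiplexing, which carry names of other samples, were left out. The 7168 nuclei with at least 1000 UMIs were classed with score thresholds of 86.8 (type II), 80.1 (type I) and 38.4 (transitional) UMIs per 10000. No doublet caller was run.

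Counts were summed per class and divided by the class total. For RNA folds a count below 3 in any class, the type II class included, was set to 3. For folds in unclassed nuclei this was done in the lower group only. Intervals of a fold are exact and conditional on the sum of both counts. Gene positions came from RefSeq GRCm38.p6 (26626 of 32285 genes matched by symbol, 20527 with a listed start). Python 3.11.15, numpy 2.4.6, scipy 1.17.1, pandas 2.3.3 and matplotlib 3.10.9 were used. The member rule was also run on simulated class counts with counting error only. These had no spread between nuclei or libraries, so they cannot show how the rule behaves on the real data.

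Named were the 10 members with the highest type II rate, the 10 with the highest fold, the 10 genes with the most members (ties broken by type II RNA level), the 10 nearest genes with the highest RNA fold among those with at least 100 type II UMIs, members within 10 kb of a listed gene and 3 peaks on each side of the threshold; other names were chosen after their values were seen. A gene that this rule takes in is not reported here. Members and lists were chosen with earlier results of these data known. There are no p-values, because nuclei are not replicates and no label ties libraries to samples. Alternatives changed the counts, thresholds, scaling, distances and libraries used.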

Additional observations from a re-analysis of the deposited data

How the results depend on the processing

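The number of members was 2820 at 2 times and 346 at 4 times the rate of both other classes. It was 610 to 1023 under the other changes of minimum count, UMI minimum, score quantile, 0 or 1 per nucleus, scaling and kept nuclei. Leaving out 1 library, with score thresholds set anew, gave 703 to 800. The set itself changed more than its size. Of the 836 members, 686, 735, 546 and 610 were members again without library A, B, C and D. With a lower score quantile 634 were, and with a higher one 771. In unclassed nuclei the median member fold was 1.96 with the score split into 2 groups and 2.87 between the outer groups of 5, and 2.25 over nuclei high in no score, an alternative added after seeing the data; leaving out 1 library gave 2.20 to 2.43, the lowest without library C and the highest without library D. Nearest genes with higher RNA were 113 at 1.5 times. Their median log2 was -0.18 with no UMI minimum and 0.053 with median ratio scaling, which reversed its sign. The median over all genes rose with that scaling too, from -0.31 to -0.19. Members at a gene start were 4.31% within 500 bp and 8.01% within 2 kb, since the window is wider. No paired analysis was possible because no label ties nuclei to the numbered samples of Sox9Cre and Cre; classes were read side by side within each library. For the same reason the planned edgeR comparison of Sox9Cre with Cre was not run. Motifs in whole peaks or their central 300 bases were not run, as no genome of the build was used here. Depth limits single members within a library: in library B 46 of 836 members had 20 type II counts.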
